A study of Mus musculus with 36 samples.

Results

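The genes described here let bladder cells release ATP and sense it: 2 connexins (Gja1 and Gjb2), the pannexin Panx1, the vesicular nucleotide transporter Slc17a9 and 5 P2X receptors (P2rx1, P2rx2, P2rx3, P2rx4 and P2rx7). They were chosen by name for their role, and are 9 of the 49585 features in the deposited gene tables. All 9 were listed there, and all 9 had reads in enough libraries to be tested. The libraries are total RNA of whole bladder from C57BL/6 mice, all of which had both adrenal glands removed, so that both arms lack the adrenal source of corticosterone. CORT mice were then given corticosterone, their chief glucocorticoid, in the inactive phase; vehicle mice were given vehicle. Each arm holds 18 libraries, 3 for every time label (4, 8, 12, 16, 20 and 24 h), which makes 12 groups. Age, sex, dose and route are not in the labels, and neither is the clock time that the labels count from. Whether the 3 replicates of a group came from different animals is not stated, and p-values reflect only the spread among these libraries, part of which may be technical.

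When the bladder fills, the urothelium that lines it releases ATP through hemichannels formed by connexins and pannexins and from vesicles that the nucleotide transporter loads. ATP opens P2X receptors, which are cation channels built as trimers. In bladder, P2X1 on the detrusor smooth muscle carries the part of contraction that parasympathetic nerves drive with ATP, and P2X2 and P2X3 on sensory endings report filling. P2X4 and P2X7 are known mainly from macrophages and other immune cells and are also found in epithelia. Gap junctions of Cx43, the connexin that Gja1 encodes, couple cells of the bladder wall electrically.

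The promoters of the most abundant receptor gene and of the 2 genes below whose window held a GC box are shown as the regulatory sequence that goes with the values. RefSeq windows on GRCm38.p6, 250 bases before a transcription start, were held for 6 of the 9 genes. The bases are printed 5′ to 3′ on the gene's strand up to the start that GENCODE gives the gene, with the GC box GGGCGG in capitals on either strand.
P2rx1 (chr11:72998895-72999102, plus strand): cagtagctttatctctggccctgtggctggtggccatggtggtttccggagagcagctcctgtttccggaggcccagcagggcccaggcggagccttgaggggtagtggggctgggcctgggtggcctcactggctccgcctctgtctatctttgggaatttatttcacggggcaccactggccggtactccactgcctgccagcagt
P2rx7 (chr5:122643677-122643910, plus strand): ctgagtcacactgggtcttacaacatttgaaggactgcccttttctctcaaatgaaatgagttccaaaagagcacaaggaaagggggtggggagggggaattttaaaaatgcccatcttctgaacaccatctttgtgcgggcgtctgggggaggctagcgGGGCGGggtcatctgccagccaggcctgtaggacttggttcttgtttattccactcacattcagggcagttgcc
Gjb2 (chr14:57104703-57104952, minus strand): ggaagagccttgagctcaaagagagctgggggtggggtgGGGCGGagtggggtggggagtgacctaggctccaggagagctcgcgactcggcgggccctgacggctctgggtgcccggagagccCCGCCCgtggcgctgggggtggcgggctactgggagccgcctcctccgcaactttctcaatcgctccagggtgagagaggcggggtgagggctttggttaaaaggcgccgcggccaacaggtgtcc

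Among the full windows of the 6 genes (7, since P2rx7 has 2), a GC box stood in 2 of the 7, that of Gjb2 and 1 of the 2 of P2rx7, and in 32.7% of all 32851 windows. The half-site AGAACA of the glucocorticoid receptor, on either strand, stood in 0 of the 7, and in 16.1% of all windows. The E-box CACGTG that clock factors bind stood in 0 of the 7 and in 6.02% of all windows, and TATAAA in 0 of the 7 and in 12.4% of all. These matches describe letters in these windows only. P2rx7 and P2rx4 are neighbours on mouse chromosome 5 and read in the same direction, P2rx7 at 122643911 to 122691432 and P2rx4 at 122707544 to 122729738 on mm10, 16.1 kb apart. P2rx1 lies on chromosome 11 (72999103 to 73015200), Gja1 on chromosome 10 (56377330 to 56402513), Gjb2 on chromosome 14 (57098600 to 57104702) and Panx1 on chromosome 9 (15002128 to 15045478). Slc17a9 (180725263 to 180742280) and P2rx3 (84998583 to 85037462) lie on chromosome 2, and P2rx2 on chromosome 5 (110339812 to 110343212).

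Values are gene read counts, quantile normalized by the authors and here brought to 1 scale for all 36 libraries. In 1 library, a value of 100 corresponded to between 68 and 152 reads (median 96). Libraries held 11016413 counts on average in CORT and 10682675 in vehicle. By replicate number 1, 2 and 3 the means were 12311337, 11146599 and 9591304 in CORT. In vehicle they were 10068455, 11551431 and 10428137. The labelled tissue was checked against its markers. The 9 urothelium markers summed to 48812 to 89064 in CORT and 46287 to 113234 in vehicle, and the 8 smooth muscle markers to 203892 to 369099 in CORT and 144762 to 415950 in vehicle. The extraction text in the labels describes blood with globin removal, whereas the source given is bladder; blood cell markers were present at lower sums, 1085.5 to 3722 in CORT and 977 to 6407 in vehicle for 6 erythroid markers and 14.6 to 36.9 in CORT and 12.7 to 41.3 in vehicle for 4 neutrophil markers, of which S100a8 and S100a9 had no read in most libraries. The library of vehicle 12 h replicate 2 stood apart, with the lowest smooth muscle sum and the highest urothelium sum of the 36, and results that rest on it are given with and without it. The authors' tables of selected genes attach other names to 8 replicate 2 libraries than the full gene tables do, in part across the 2 arms; the names of the full tables are used, and values with the other names are given beside the differences and rhythms that lean to 1 side.

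P2rx1 was the most abundant of the 9 genes and dominated the receptors (the plot of levels per kb). Its level per kb of the longest coding transcript was 1449 ± 621 in CORT and 1502 ± 464 in vehicle (SD, n = 18 each). Among features with reads, its mean value stood at percentile 97.6 in CORT and 97.7 in vehicle. P2rx1 made up a median of 88.8% of the summed level per kb of the 5 P2X genes in CORT (79.9% to 94.1% over libraries) and 88.8% in vehicle (71.5% to 93.0%). Gja1 followed with 231 ± 53.7 per kb in CORT and 240.5 ± 48.0 in vehicle, so that the mean of P2rx1 was 6.272 times that of Gja1 in CORT and 6.245 times in vehicle. Per kb of all exons, P2rx1 stayed highest, at 1372 in CORT and 1422 in vehicle. Gja1 then had 71.7 in CORT and 74.6 in vehicle, Gjb2 80.1 and 74.6, and P2rx4 48.1 and 49.0. The order of Gja1, P2rx4 and Gjb2 and the ratio of P2rx1 to Gja1 thus depend on the length used.

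By the longest coding transcript, the middle of the order was held by P2rx4, Gjb2, P2rx7 and Panx1. Levels per kb were 125 ± 10.4 in CORT and 127 ± 10.4 in vehicle for P2rx4, and 80.1 ± 19.5 in CORT and 74.6 ± 16.9 in vehicle for Gjb2. They were 44.1 ± 8.41 in CORT and 50.9 ± 8.76 in vehicle for P2rx7, and 36.8 ± 5.94 in CORT and 34.3 ± 6.26 in vehicle for Panx1. The ranges over libraries of each gene and the next overlapped within this block: Gjb2 lay above P2rx7 in 17 of 18 CORT libraries and 15 of 18 vehicle libraries, and P2rx7 above Panx1 in 14 of 18 and 16 of 18. Gja1, in contrast, lay above P2rx4 in 18 of 18 libraries of each arm, with no overlap of their ranges.

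The other 3 genes were near the limit of detection. Slc17a9, the vesicle transporter, had 4.56 ± 2.38 per kb in CORT and 4.69 ± 1.25 in vehicle, on 3 to 24 reads per library. P2rx2 had 2.63 ± 1.44 in CORT and 3.93 ± 1.54 in vehicle, on 0 to 11 reads in CORT libraries and 3 to 18 in vehicle libraries. P2rx3 had 1.80 ± 1.01 in CORT and 0.915 ± 0.735 in vehicle, with at most 6 reads in any library and none in 2 CORT and 6 vehicle libraries. The cell bodies of the sensory neurons that use P2X2 and P2X3 lie in ganglia outside the bladder. By the longest coding transcript, the order of all 9 genes was the same in both arms. In bulk tissue fewer cells of a type and less RNA per cell cannot be told apart.

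**Figure D1:**
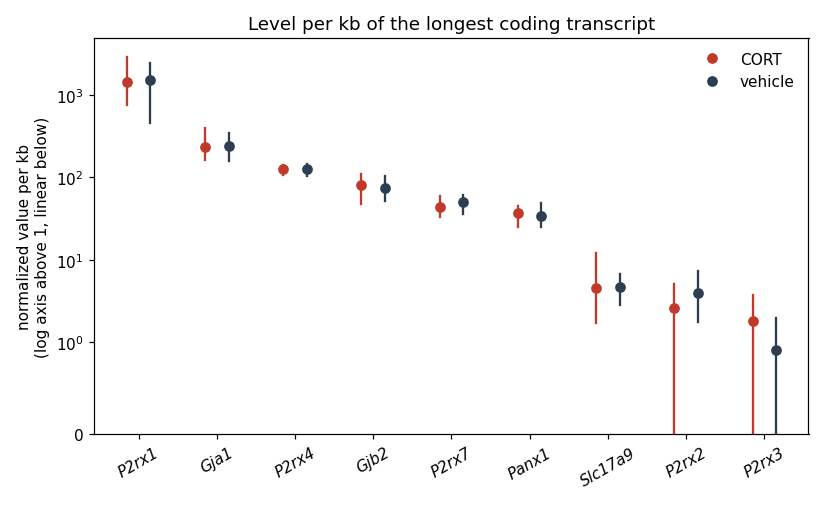
Mean level of each gene per kb of its longest coding transcript (points) and its lowest to highest library (lines), for 18 CORT and 18 vehicle libraries; the vertical axis is logarithmic above 1 and linear below. P2rx1 stands above all others and Slc17a9, P2rx2 and P2rx3 at the bottom, with CORT and vehicle ranges that overlap for every gene.

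The first question was whether corticosterone changed the level of any of these genes over the day. None of the 9 was called: the mean of the 6 CORT-minus-vehicle differences passed for 0 of 9 at an adjusted p of 0.05 (limma, Benjamini-Hochberg over 17867 features), against 4.11% of all features tested (734, of which 230 were higher and 504 lower in CORT). At an unadjusted p under 0.05, limma gave 3 of the 9 (P2rx2, P2rx3 and P2rx7) and 20.2% of all features. The median difference of the 9 genes was -0.06 on the log2 scale, beside 0.02 over all features. The count over all features was 6 without the 8 libraries that carry 2 names, 0 with their other names, 1 without replicate 2 and 29 without replicate 3.

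**Figure D2:**
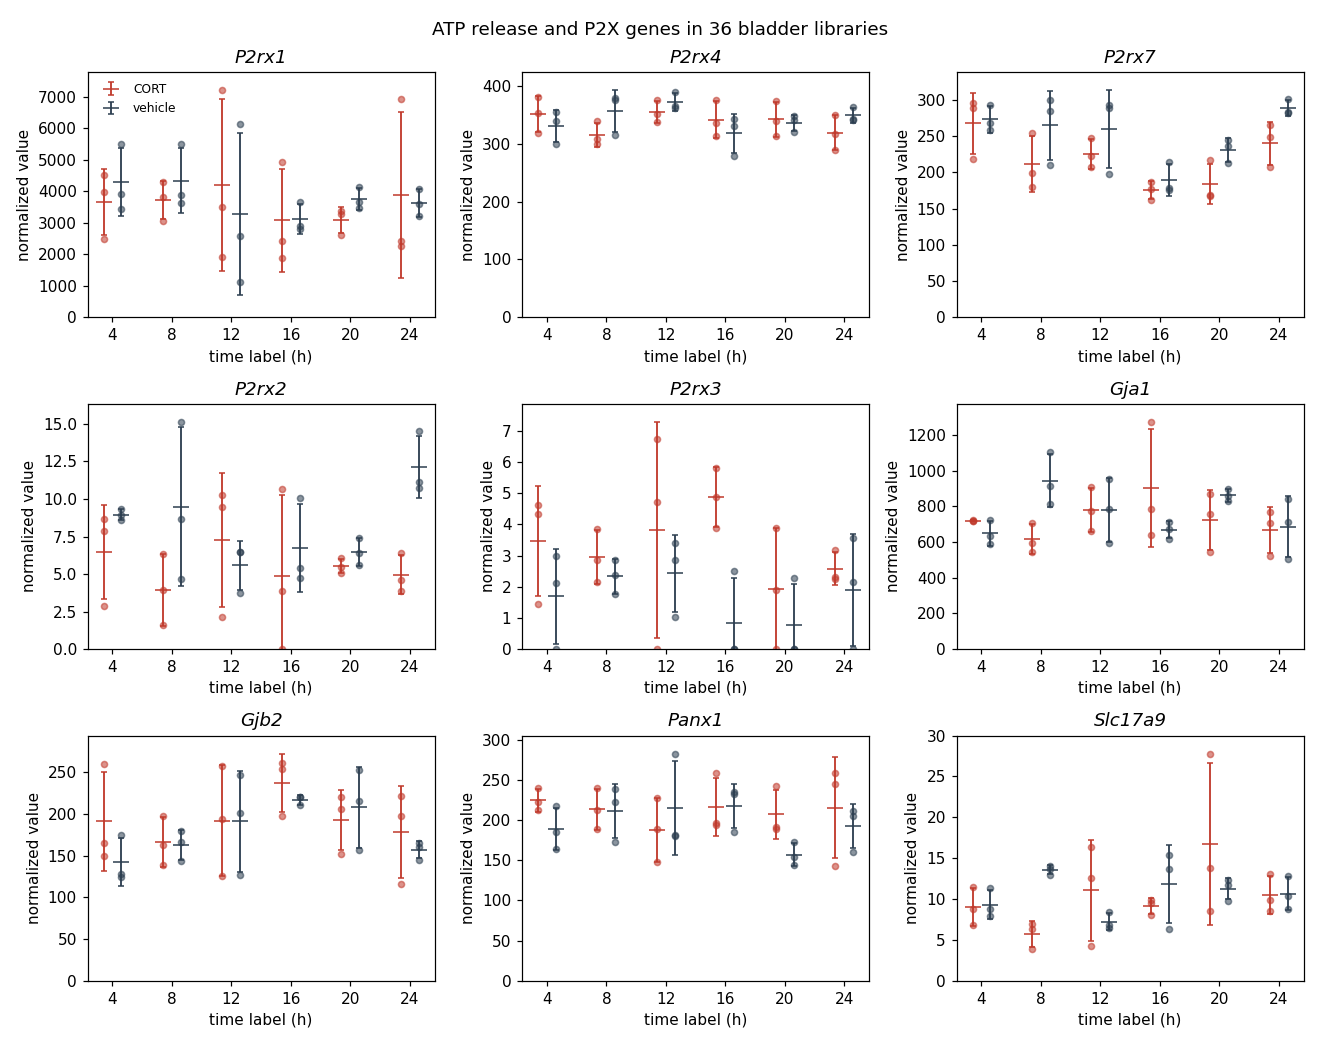
Normalized values of the 9 genes in all 36 libraries by time label (h), with CORT in red to the left of vehicle in dark blue at each time; points are libraries, dashes and bars mean ± SD (n = 3), and every axis starts at 0. P2rx4 keeps to a narrow band, P2rx1 spreads widely within groups, P2rx7 is lowest at 16 h in vehicle and at 16 and 20 h in CORT, and P2rx2 and P2rx3 stay at or below 15.1.

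P2rx4, which has the smallest spread of the 9, gives the tightest limit. Its lowest, median and highest values were 290.2, 339 and 381 in CORT, against 280.0, 344 and 389.8 in vehicle. The 2 arms covered the same range. The difference was -0.03 ± 0.04 on the log2 scale (SE; 95% interval -0.11 to 0.06; limma adjusted p = 0.762), and the sign turned to 0.02 in the replicate 3 libraries alone. The coefficient of variation of P2rx4 was 8.30% in CORT and 8.15% in vehicle, beside 42.8% and 30.9% for P2rx1 in CORT and vehicle.

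P2rx1, the receptor of the smooth muscle, is at the other end. Its lowest, median and highest values were 1875, 3326 and 7209 in CORT, against 1123, 3639 and 6136 in vehicle. The arms overlapped over nearly their whole range, and the highest and the lowest libraries were both at 12 h. The difference was -0.08 ± 0.20 (95% interval -0.49 to 0.32; limma adjusted p = 0.868), an interval that holds differences in either direction. Without vehicle 12 h replicate 2 the difference was -0.19, and in the replicate 3 libraries alone it was -0.46. By replicate number, P2rx1 averaged 5114, 3211 and 2483 in CORT replicates 1, 2 and 3, and 4754, 3017 and 3428 in vehicle replicates 1, 2 and 3 (n = 6 each). The smooth muscle sums were likewise highest in replicate 1, at means of 343288 in CORT and 364426 in vehicle. Their means were 273586 and 258271 in CORT replicates 2 and 3, and 259975 and 275799 in vehicle replicates 2 and 3. With smooth muscle and urothelium marker levels as covariates (a setting added after the values were seen) the difference was 0.18.

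None of the release genes was called either. Gja1 had a lowest, median and highest value of 521, 718.5 and 1274 in CORT, against 504, 755 and 1104 in vehicle, a difference of -0.06 ± 0.09 on the log2 scale (limma adjusted p = 0.750) that turned to 0.026 with the names of the selected-gene tables. Gjb2, which encodes the epithelial connexin Cx26, had 116, 197 and 261 in CORT and 124, 171 and 252 in vehicle (0.09 ± 0.11; 0.675). Panx1 had 143, 212 and 258 in CORT and 144, 186 and 282 in vehicle (0.10 ± 0.08; 0.525). For each of the 3 the arms overlapped, and the 95% intervals were -0.25 to 0.12, -0.13 to 0.32 and -0.07 to 0.27. With a replicate number or a library left out, the difference ran over 0.029 to 0.17 for Gjb2 and 0.023 to 0.16 for Panx1, and with the names of the selected-gene tables it was 0.15 for Gjb2 and 0.040 for Panx1. The signs of the Gjb2 and Panx1 differences turned to -0.03 and -0.08 with the marker covariates, beside urothelium markers that were each higher in CORT by 0.08 to 0.25 with none called. Slc17a9 had 3.89, 9.15 and 27.8 in CORT and 6.39, 10.8 and 15.4 in vehicle (-0.12 ± 0.14; 95% interval -0.42 to 0.18; 0.695).

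The 2 receptors of sensory endings stood in opposite directions, on few reads and without a call. P2rx2 had 94 reads over the 18 CORT libraries and 145 over the 18 vehicle libraries, with a difference of -0.62 ± 0.24 on the log2 scale (95% interval -1.11 to -0.13; limma adjusted p = 0.135). P2rx3 had 53 reads in CORT and 27 in vehicle, with 0.73 ± 0.29 (0.15 to 1.32; 0.142). The group mean of P2rx2 was lower in CORT at 5 of 6 times, and that of P2rx3 higher at 6 of 6 times, as for 6.75% of all features. P2rx2 passed without CORT 16 h replicate 1, which had 11 reads of it (-0.76; adjusted p = 0.0419). P2rx3 passed without replicate 1 (0.83; 0.0272), without CORT 12 h replicate 1, which had none (0.89; 0.0471), and with library weights (0.76; 0.0330). With the names of the selected-gene tables the differences were -0.35 for P2rx2 and 0.31 for P2rx3 (adjusted p = 0.768 and 0.862). The 5′ end of P2rx3 overlaps Ssrp1, an abundant gene on the opposite strand; the kit keeps strand, but how the reads were counted is not given in the sources used here.

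**Figure D3:**
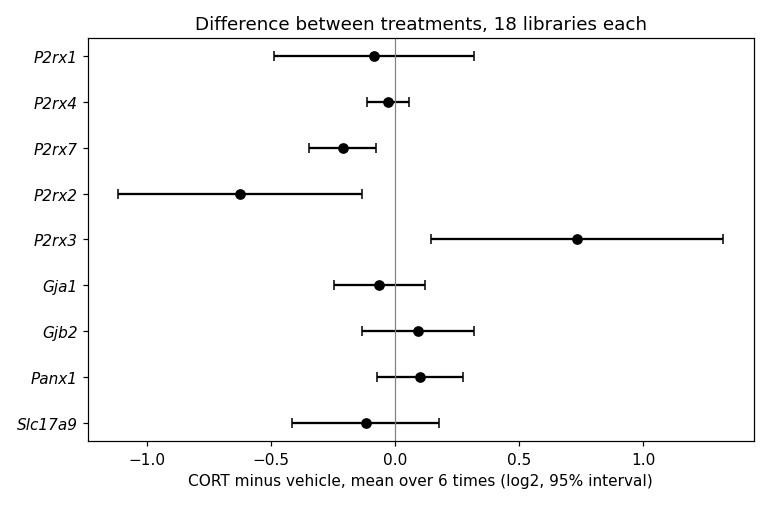
CORT-minus-vehicle difference of each gene on the log2 scale, averaged over the 6 time labels, with 95% intervals from limma (18 libraries per arm). The intervals of P2rx7, P2rx2 and P2rx3 lie to 1 side of 0 before adjustment, and none of the 9 passed after adjustment over all features.

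P2rx7 came closest to a call. It forms a channel that needs high ATP and is known for triggering the inflammasome in macrophages. At 4 h it had 219, 296 and 288 in CORT, against 293, 268 and 258 in vehicle. At 8 h it had 179, 254 and 199.9 in CORT, against 210.3, 285 and 299.9 in vehicle. At 12 h it had 248, 207 and 223 in CORT, against 288, 198 and 294 in vehicle. At these 3 times the groups overlapped. At 16 h P2rx7 had 177, 162 and 187 in CORT, against 176, 214.7 and 178 in vehicle. At 20 h it had 167, 217 and 169 in CORT, against 213, 245 and 236 in vehicle. At 24 h it had 265, 207 and 249 in CORT, against 281, 301 and 284 in vehicle, and here every CORT library lay below every vehicle library.

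The group mean of P2rx7 was lower in CORT at 6 of 6 times, as for 5.31% of all features, and the difference over the day was -0.21 ± 0.06 on the log2 scale, 0.864 of the vehicle level (95% interval -0.34 to -0.08; unadjusted p = 0.00328, limma adjusted p = 0.0641). CORT means were below vehicle means in each replicate number: 209, 224 and 219 in CORT replicates 1, 2 and 3, and 244, 252 and 258 in vehicle replicates 1, 2 and 3. It passed without CORT 8 h replicate 2 (adjusted p = 0.0405), CORT 20 h replicate 2 (0.0495), CORT 24 h replicate 1 (0.0445), vehicle 8 h replicate 1 (0.0313), vehicle 12 h replicate 2 (0.0179) or vehicle 16 h replicate 3 (0.0499), with a minimum mean of 10 (0.0463) and with library weights (0.00812), which raised the calls over all features to 3145. It did not pass without the 8 libraries that carry 2 names (0.233) or without replicate 1 (0.152), replicate 2 (0.185) or replicate 3 (0.465). With the names of the selected-gene tables the difference was -0.15 (0.729), and with the marker covariates -0.12 (0.403). Endothelium markers were lower in CORT for 6 of 6 genes, with sums of 2198 to 3876 in CORT and 2884 to 5661 in vehicle, and fibroblast markers for 3 of 7, with sums of 117980 to 204540 in CORT and 130198 to 286655 in vehicle. Macrophage markers were called for 0 of 6, with sums of 3977 to 6012 in CORT and 3927 to 6336 in vehicle. Across the 36 libraries P2rx7 correlated with the mean level of fibroblast markers at 0.526 and endothelium markers at 0.515. With macrophage markers the value was 0.476, and with urothelium markers -0.490. In the same order the values were 0.400, 0.288, 0.286 and -0.388 within CORT. Within vehicle they were 0.445, 0.481, 0.510 and -0.449. Mast cell markers gave 0.353 over the 36 libraries, -0.015 within CORT and 0.713 within vehicle. The part of these cells in the P2rx7 difference was not tested.

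At single times, again none of the 9 genes was called. Background shares of features called were 0.162% at 4 h, 0.795% at 8 h, 0.0448% at 12 h, 0.0112% at 16 h, 0 at 20 h and 0.0336% at 24 h. At an unadjusted p under 0.05, limma gave 2 of the 9 at 8 h, against 15.1% of all features, 1 at 16 h, against 4.05%, 1 at 20 h, against 6.01%, and 0 at 4, 12 and 24 h, against 6.9%, 4.51% and 6.31%. The arms did not overlap in 7 of the 54 pairs of gene and time, 5 lower and 2 higher in CORT. The share of all features whose arms did not overlap was 13.4% at 4 h, 23.2% at 8 h, 6.49% at 12 h, 6.26% at 16 h, 14.6% at 20 h and 10.9% at 24 h.

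At 8 h Slc17a9 and Gja1 were both low in CORT. Slc17a9 had 6.36, 3.89 and 6.92 in CORT, against 14.03, 13.7 and 12.97 in vehicle. These values rest on 6, 3 and 5 reads in CORT and 12, 11 and 17 reads in vehicle. The difference was -1.15 ± 0.35 on the log2 scale (95% interval -1.88 to -0.42; limma adjusted p = 0.114). Gja1 at 8 h had 597, 547 and 708 in CORT, against 815, 917 and 1104 in vehicle, a difference of -0.61 ± 0.22 (-1.06 to -0.16; 0.173). Neither gene had overlapping arms at that time. With library weights, which called 975 features at 8 h against 142 without them, both passed, Slc17a9 with -1.28 (adjusted p = 0.0184) and Gja1 with -0.72 (0.0342). With the names of the selected-gene tables the differences at 8 h were -0.56 for Slc17a9 and -0.12 for Gja1, both with an adjusted p of 0.998. At 8 h the fibroblast markers Col1a1 and Col3a1, the endothelium markers Pecam1 and Vwf and the macrophage marker Adgre1 were also lower in CORT by limma, and their part in the 2 values was not tested. At other times Gja1 differed in both directions, and whether its difference varied with time was not called (limma adjusted p = 0.941). The same test gave 0.914 for Slc17a9 and called 0 of the 9 genes, against 0.134% of all features (0 of the 9 at an unadjusted p under 0.05).

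Other times gave isolated separations. P2rx3 at 16 h had 6, 3 and 4 reads in CORT, against 0, 0 and 2 in vehicle. That is 13 reads against 2, a ratio of 6.5 with an exact 95% interval of 1.47 to 59.3 that covers counting error only, and the limma adjusted p was 0.999. P2rx2 at 24 h had 5, 6 and 4 reads in CORT, against 18, 12 and 10 in vehicle (-1.15 ± 0.58 on the log2 scale; limma adjusted p = 0.814). Panx1 at 20 h had 189, 191 and 242 in CORT, against 154, 144 and 172 in vehicle (0.40 ± 0.21; adjusted p = 0.856). P2rx1 at 20 h had 3278, 3375 and 2596 in CORT, against 4140.1, 3657 and 3471 in vehicle (-0.29 ± 0.48; adjusted p = 0.960). The arms did not overlap in these 4 cases, and each adjusted p was far from the threshold. P2rx7 at 20 h, where 1 CORT library lay within the vehicle range, differed by -0.34 ± 0.16 (0.813).

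The series title names the bladder clock and the daily pattern of micturition, so each gene was also tested for a course over the day. No gene of the 9 was called for a change over the 6 times in CORT (0 of 9, against 0.0167% of features) or in vehicle (0 of 9, against 0.401%). At an unadjusted p under 0.05 the time test gave 1 of 9 in CORT, against 5.6% of features, and 1 of 9 in vehicle, against 13.9%. For a 24 h cosine, limma called 0 of 9 in CORT, against 0 of all features, and 0 of 9 in vehicle, against 0.44%. Unadjusted, it gave 1 of 9 in CORT, against 5.89% of features, and 3 of 9 in vehicle, against 12.7%. The vehicle 3 were Gjb2, with an amplitude from mean to peak of 0.30 ± 0.08 on the log2 scale peaking at 16.3 h (limma adjusted p = 0.207), P2rx2 with 0.42 ± 0.13 at 2.21 h (0.289), and P2rx7. With the names of the selected-gene tables the amplitudes were 0.085 for Gjb2 and 0.32 for P2rx2. A difference in rhythm between the arms was called for 0 of 9, against 0.106% of features (0 at an unadjusted p under 0.05). In the authors' deposited tables of genes they selected, P2rx2 was among the vehicle genes of the table with 12 libraries, and none of the 9 was in the other 3 tables.

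P2rx7 had much the same course in both arms. Its means were 268 ± 42.2, 211 ± 38.8, 225.8 ± 20.5, 175 ± 12.7, 184 ± 28.1 and 240.4 ± 29.9 at 4, 8, 12, 16, 20 and 24 h in CORT (SD, n = 3 each). At the same times they were 273 ± 18.1, 265 ± 47.9, 259.9 ± 53.97, 189.8 ± 21.6, 232 ± 16.5 and 289 ± 10.7 in vehicle. The lowest mean stood at 16 h in both arms, and the highest at 4 h in CORT and at 24 h in vehicle. The fitted amplitude was 0.25 ± 0.07 with a peak at 4.48 h in CORT (limma adjusted p = 0.689) and 0.23 ± 0.07 with a peak at 4.03 h in vehicle (0.249), and the test of the difference in rhythm gave an adjusted p of 1.0. With the names of the selected-gene tables the amplitudes of P2rx7 were 0.082 in CORT and 0.10 in vehicle.

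After these values had been seen, the 2 arms were fitted together with treatment as a term, so the outcome describes the same libraries and is not independent of them. Of the 9 genes, P2rx7 alone passed. Its time means spanned 0.56 on the log2 scale (limma adjusted p = 0.0223; 2.42% of all features passed), and a 24 h curve peaked at 4.26 h with an amplitude of 0.24 ± 0.05 (adjusted p = 0.0185; 1.54% of all features passed). With the marker covariates the adjusted p were 0.0405 for time and 0.0162 for the curve. Neither passed without the 8 libraries that carry 2 names (0.320 for time and 0.276 for the curve) or with their other names (1.0 for both), and neither did without replicate 2 (0.223 and 0.390) or without replicate 3 (0.531 and 0.261). The time test also failed to pass without replicate 1 (0.0992), CORT 16 h replicate 2 (0.0700) or vehicle 16 h replicate 1 (0.0657).

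**Figure D4:**
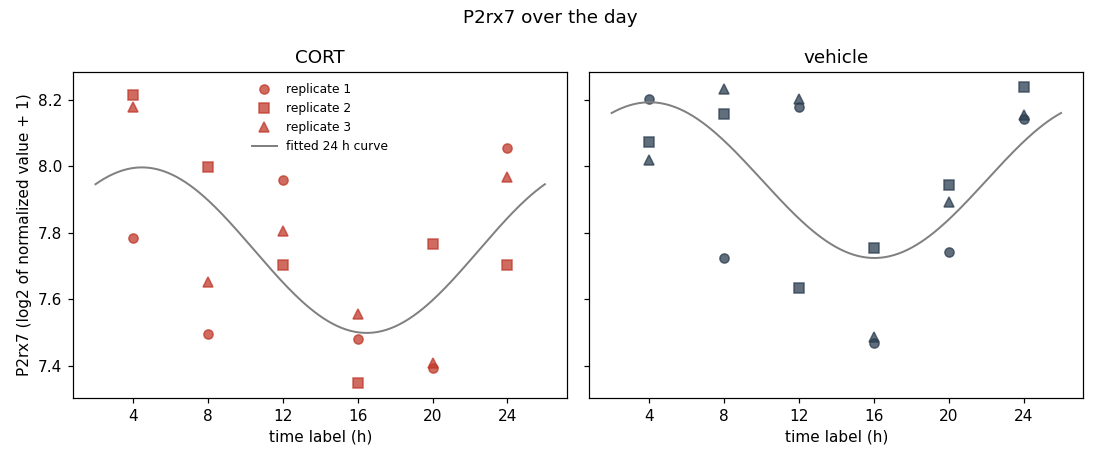
P2rx7 in each library on the log2(value + 1) scale against the time label (h), with CORT on the left and vehicle on the right; symbols mark the replicate number and the line is the fitted 24 h curve of that arm. Both curves peak near 4 h (4.48 h in CORT and 4.03 h in vehicle) and are lowest near 16 h, and neither curve was called within its own arm.

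P2rx1, Panx1 and Gjb2 also varied with the tissue layer markers of a library (the plot of levels against layer markers). The tissue make-up of the libraries was not itself measured. P2rx1 correlated across the 36 libraries with the mean level of smooth muscle markers at 0.877 (0.830 within CORT and 0.948 within vehicle) and with urothelium markers at -0.826. Panx1 correlated with urothelium markers at 0.790 (0.875 within CORT and 0.711 within vehicle), and Gjb2 at 0.679 (0.749 and 0.626 within CORT and vehicle). Gjb2 and Panx1 correlated with P2rx1 at -0.772 and -0.723. The points share libraries and 1 normalized scale, so these values are descriptions. Without vehicle 12 h replicate 2, P2rx1 with smooth muscle, Panx1 with urothelium and Gjb2 with urothelium markers correlated at 0.834, 0.760 and 0.663. Without the 2 libraries farthest from the median marker level these values were 0.811, 0.760 and 0.628. Across all 36 libraries, the remaining genes ran from -0.408 (P2rx3) to 0.240 (P2rx7) with smooth muscle markers. With urothelium markers they ran from -0.490 (P2rx7) to 0.377 (P2rx3).

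**Figure D5:**
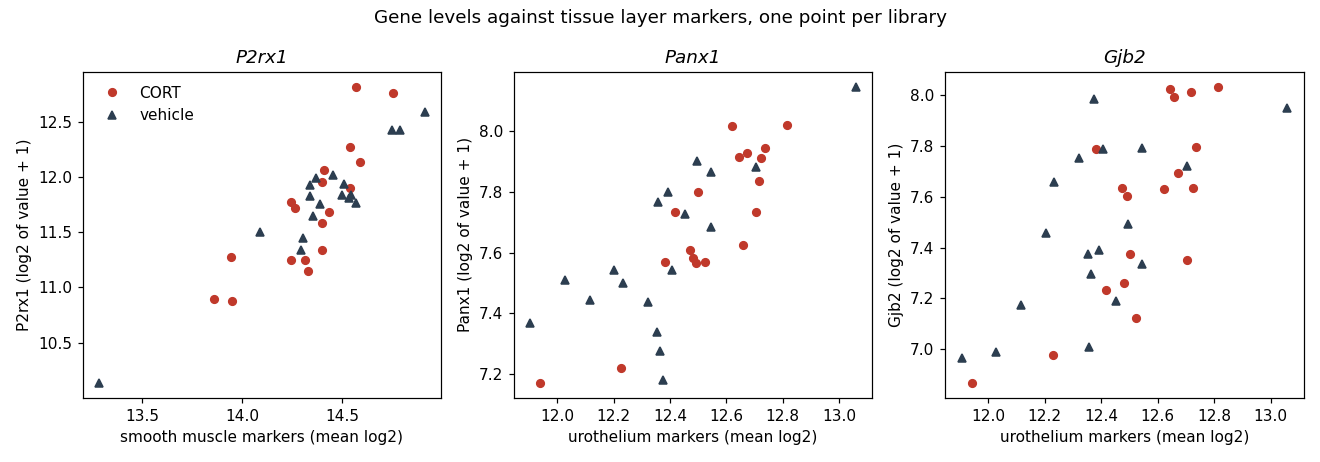
P2rx1 against the mean level of 8 smooth muscle markers, and Panx1 and Gjb2 against that of 9 urothelium markers, 1 point per library (CORT circles, vehicle triangles), all on log2 scales. P2rx1 rises with the smooth muscle markers (0.877 over 36 libraries) and Panx1 and Gjb2 with the urothelium markers (0.790 and 0.679); the lowest P2rx1 point and the highest urothelium points belong to vehicle 12 h replicate 2.

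Genes whose course over the 36 libraries was most like each of the 9, among 13788 features with a mean of at least 10, were named by their Pearson correlation. They were picked as the highest of these features, and no test was made, so the values are descriptions. P2rx1 was most like Stum (0.959), Tspan2 (0.955) and Ckm, the muscle creatine kinase (0.951). Panx1 was most like Spint1, an epithelial protease inhibitor (0.859), Lrrc8e, a subunit of volume-regulated anion channels (0.840), and Dsp, which encodes desmoplakin (0.832). Gjb2 was most like Zdhhc9 (0.839), Plk3 (0.825) and Nipal4 (0.824). P2rx7 was most like Plekhm3 (0.786), Glg1 (0.782) and Rcan3 (0.778).

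The remaining genes had looser neighbours. P2rx4 was most like Unc93b1, a chaperone of endosomal Toll-like receptors (0.657), and the lysosomal enzymes Ctsa (0.648) and Naglu (0.630). Gja1 was most like Pqlc3 (0.688), Sox5 (0.623) and Spon1 (0.621). Slc17a9 was most like Cd248 (0.724), Creb3l1 (0.685) and Ankrd1 (0.676), P2rx3 most like Snx27 (0.723), Rp9 (0.674) and Fry (0.670), and the features most like P2rx2 included H2-Q4 (0.557) and Znfx1 (0.546). Slc17a9, P2rx3 and P2rx2 had at most 24, 6 and 18 reads in any library, and the part of counting noise in their correlations was not tested. P2rx7 and its neighbour P2rx4 correlated at 0.431.

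The rest of the pathway was read from lists of genes picked by role. Over the day, 0 of 2 other P2X genes, 0 of 6 measured P2Y receptors, 0 of 3 measured adenosine receptors and 0 of 11 measured genes of nucleotide breakdown and adenosine handling were called between CORT and vehicle; at an unadjusted p under 0.05, limma gave 0, 1, 0 and 1 of them, and 4.11% of all features were called and 20.2% passed unadjusted. Of the other connexin, pannexin and volume channel genes, 13 of 17 were measured, and 2 of these were lower in CORT and 0 higher. Of these, Gja4, which encodes the endothelial connexin Cx37, averaged 61.3 ± 15.04 in CORT and 84.8 ± 17.8 in vehicle (-0.48 ± 0.10 on the log2 scale; limma adjusted p = 0.00763). Endothelium markers were lower in CORT for 6 of 6 genes, as given above for P2rx7, and their part in the value of Gja4 was not tested.

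In the lists with no call, the 2 genes with the highest mean values were as follows. Alpl, a phosphatase that takes nucleotides down to adenosine, averaged 1956 ± 420.0 in CORT and 1710.2 ± 283 in vehicle (0.18 ± 0.10; limma adjusted p = 0.338). Entpd1, which degrades ATP and ADP, averaged 1493 ± 468 in CORT and 1725 ± 478 in vehicle (-0.22 ± 0.14; 0.391). Both are ectoenzymes that break down the ATP that cells release. Of the adenosine receptors, Adora2b averaged 239 ± 53.3 in CORT and 244 ± 61.7 in vehicle (-0.02 ± 0.10; 0.948), and Adora1 178 ± 35.7 in CORT and 153 ± 39.2 in vehicle (0.23 ± 0.11; 0.254). Of the P2Y receptors, which act through G proteins, P2ry2, which binds ATP and UTP, averaged 225 ± 39.9 in CORT and 223 ± 78.9 in vehicle (0.06 ± 0.08; 0.762), and P2ry1, which binds ADP, 135 ± 19.7 in CORT and 128 ± 13.2 in vehicle (0.06 ± 0.06; 0.602). P2rx5 averaged 32.5 ± 10.05 in CORT and 31.8 ± 9.54 in vehicle, and P2rx6 22.2 ± 8.81 in CORT and 21.2 ± 7.70 in vehicle.

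Over time, Enpp3, an ectonucleotidase, was the 1 gene of these lists to be called in vehicle: its time means spanned 0.81 on the log2 scale, with the highest at 8 h and the lowest at 16 h (limma adjusted p = 0.0325). In CORT 0 of the list genes were called for time. Over all features, 0.401% were called for time in vehicle and 0.0167% in CORT. With both arms fitted together, as above after the values had been seen, Enpp3 (0.55; adjusted p = 0.0214) and P2ry2 (0.74, highest at 16 h and lowest at 4 h; 0.0410) passed for time. For a 24 h curve, 2 of the measured list genes counted above passed, P2ry2 being 1 of them (amplitude 0.31 ± 0.07, peak 16.2 h, limma adjusted p = 0.0305). Over all features, 2.42% passed for time and 1.54% for the curve in this joint fit. The fitted peak of P2ry2 stands about opposite to the 4.26 h of P2rx7 on the label clock. It is close to the 16.5 h fitted to Gjb2, which did not pass (0.23 ± 0.07, limma adjusted p = 0.146). The P2rx7 curve itself did not pass without the 8 libraries named in 2 ways, with their other names, or without replicate 2 or 3. How P2ry2 depends on these libraries is not given here, and the relation of the peaks was not tested. In the authors' deposited tables of selected genes, those from 12 libraries included Gja5 for CORT and P2ry2 for vehicle, and those from 18 libraries included P2ry13 for CORT and Entpd8 and Panx3 for vehicle. All of these but P2ry2 were near the limit of detection. Over the 36 libraries, Panx3 had no read in 30, Entpd8 in 29, P2ry13 in 8 and Gja5 in 7.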

How the data were processed

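Ribosomal RNA was depleted from whole bladder RNA and directional libraries were sequenced, per the labels' protocols, in 36 libraries (2 arms, 6 time labels, 3 replicates). Per the submitters' processing notes, reads were placed on mm10; the aligner, counting program and annotation are not named in those notes or the labels. The deposited full tables hold a signal per gene, which the values show to be read counts quantile normalized across the 12 libraries of a table by the authors: every column holds the same set of values, in multiples of 1/12. The deposited tables of selected genes hold log2(value + 1) of the same values and were used only for their gene lists and library names.

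From these, 1 scale for all 36 libraries and 1 for each arm of 18 were rebuilt by giving each rank the mean over libraries, with reads of low values numbered from their ties, exactly up to a value of 300. Library totals are therefore known only as means per arm and per replicate number of an arm, and the reads behind a value are given from this numbering. Features above the lowest value of a library in at least 50% of the libraries were fitted as log2(value + 1), a pseudocount of 1 that understates changes of low genes, with limma 3.58.1 in R 4.3.3; treatment by time formed 12 group means. P-values are two-sided and adjusted (Benjamini-Hochberg) over all features fitted, with calls at 0.05; errors of differences are SE. Rhythms are cosine and sine terms of 24 h within an arm, on that arm's scale. Other steps used Python 3.11.15, numpy 2.4.6 and pandas 2.3.3, and the tests were tried on simulated data. An interval from reads covers counting error only, at 95%.

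The 9 genes, the pathway lists and the markers were chosen with earlier results of these data known. Named are the 9 genes, list genes that passed or else the 2 with the highest means, and the 3 features most like each gene among those with a mean of at least 10. A few genes that this rule names are not reported here. Replicate numbers come from the titles and pair nothing by the labels. Replicate 3 libraries were registered later, which may mark a batch. Day-mean differences in replicate 3 alone are therefore given for all of the 9 genes but P2rx2 and P2rx3. Alternatives were a pseudocount of 10, no filter or a minimum mean of 10, an intensity trend, library weights, a replicate block, median-of-ratios scaling, leaving out replicates and libraries, the 8 libraries named in 2 ways, marker covariates and the deposited tables as they stand.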

Additional observations from a re-analysis of the deposited data

How the results depend on the processing

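The count of the 9 genes called for the day-mean difference between CORT and vehicle was 0; it was 1 with a minimum mean of 10 (P2rx2 and P2rx3 were then not tested; 916 of all features were called, against 734), 2 with library weights (3145 of all features) and 0 to 1 when a replicate number or a library was left out. Library weights also gave 2 calls at single times and 2 for time in vehicle (3886 of all features, against 71), where leaving out libraries gave 0 to 1; both were 0. Fitted over both arms, time and the 24 h curve each called 1 gene; both counts were 0 without the 8 libraries named in 2 ways, 0 with their other names and 0 to 1 when replicates or libraries were left out. The log2 difference of Gja1 turned to 0.021 without the 8 libraries and to 0.026 with their other names, and ran over -0.19 to 0.026 with replicates or libraries left out. That of Slc17a9 turned to 0.043 without the 8 and to 0.13 in replicate 3 alone (-0.24 to 0.021 with replicates or libraries left out), and that of P2rx4 to 0.023 in replicate 3 alone (-0.052 to 0.015). That of P2rx1 ran over -0.19 to 0.11 with replicates or libraries left out. In replicate 3 alone it was -0.46, and the differences of Gja1, Gjb2, Panx1 and P2rx7 were -0.15, 0.22, 0.26 and -0.24. The marker covariates took P2rx1 to 0.18 and also turned Gjb2 to -0.033 and Panx1 to -0.083. The cause was not tested, and none of these turned values was called. A replicate block changed no call among the 9 (0 for the day mean; P2rx7 -0.21, limma adjusted p = 0.0525) and moved the count over all features from 734 to 1240; libraries of the same number correlated at a mean of 0.0559 against -0.0279 for other numbers, and 5 of 18 pairs exceeded 0.1, so the numbers are not taken as pairs. Depth limits Slc17a9, P2rx2 and P2rx3 most, and the naming of 8 libraries limits every comparison.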
